A study of Mus musculus with 3 samples.

Results

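The cells described here are the Langerhans cells (LCs) of untreated mouse ear epidermis. They were chosen by measured values, the UMIs (unique molecular identifiers, each 1 captured molecule) of each barcode of the untreated library. A barcode was kept with at least 500 genes, at most 10% of UMIs from mitochondrial genes, at least 2% of UMIs from Cd74, H2-Aa, H2-Ab1 and H2-Eb1 together, at least 2 Epcam UMIs, at least 1 Cd207 UMI and fewer than 3 UMIs of Cd3e, Cd3g and Cd3d. The keratins Krt14, Krt5, Krt1 and Krt10 had to sum to under 0.1% of UMIs. This left 9119 of the 9876 barcodes of the untreated library (92.3%, exact 95% binomial interval 91.8 to 92.9) and of 25062 barcodes in the series.

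The series holds 3 single-cell libraries of LC-enriched ear epidermis from male Cd1 mice, an outbred stock, with 1 library per group. The untreated mice had received only the depilatory cream Nair, the second group croton oil in acetone and olive oil, and the third group repeated punches of a microneedle array. Treated ears were taken 48 hours after the first treatment, and no such time is listed for the untreated ones. All 3 groups went through trypsin (0.3%, 1 hour 45 minutes at 37 °C), 15 minutes in suspension, a 70 µm strainer, magnetic removal of dead cells and magnetic enrichment of LCs. The labels do not give the number of animals behind a library. With 1 library per group there are no replicates, so nothing below is a test, and the intervals cover counting error only.

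LCs are the antigen-presenting cells of the epidermis. They sit between keratinocytes, to which they are held by adhesion molecules such as E-cadherin and EpCAM, and they take up antigen, load peptides on MHC class II molecules and carry them to lymph nodes. The class II molecule is a pair of chains that is held by the invariant chain (Cd74) until proteases of the endosome cut it away. Its genes are switched on together by the coactivator CIITA, which acts through short promoter elements, among them an inverted CCAAT motif called the Y box.

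The 3 class II chain genes were, after Cd74 and the nuclear RNA Malat1, the highest genes of the untreated LCs outside the mitochondrial and ribosomal protein genes, so the sequences before their start sites are shown. Each is the 150 bases upstream of the canonical transcript start of GENCODE M39 on GRCm39, 5′ to 3′ on the gene's strand. The capitals mark CTGATTGG, which holds ATTGG, the inverted CCAAT of the Y box.
H2-Aa (chr17:34506798-34506947, minus strand): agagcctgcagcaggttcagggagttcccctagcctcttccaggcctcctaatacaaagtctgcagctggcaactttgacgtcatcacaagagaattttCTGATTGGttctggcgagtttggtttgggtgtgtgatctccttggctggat
H2-Ab1 (chr17:34482033-34482182, plus strand): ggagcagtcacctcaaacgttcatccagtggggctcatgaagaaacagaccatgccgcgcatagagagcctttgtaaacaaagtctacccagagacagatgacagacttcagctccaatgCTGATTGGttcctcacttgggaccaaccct
H2-Eb1 (chr17:34524663-34524812, plus strand): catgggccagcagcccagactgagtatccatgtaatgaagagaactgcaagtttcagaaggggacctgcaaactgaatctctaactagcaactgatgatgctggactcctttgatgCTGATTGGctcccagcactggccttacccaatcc

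All 3 windows held CTGATTGG once, 30 to 51 bases before the start site. Of 21656 protein-coding genes, 859 (3.97%) held these letters on either strand in a window of the same length. The shorter ATTGG, which lies inside CTGATTGG, was in 6017 (27.8%). The windows of H2-DMa and H2-DMb2, chains of the molecule that loads peptide onto class II, held ATTGG without the longer motif. Those of H2-DMb1 and Cd207 held neither, but only the canonical start site of each gene was searched. The H2-Eb1 window overlaps exons of Gm20513, a long noncoding RNA annotated on the opposite strand, which had 220 CPM (the gene's share of all UMIs of the summed LCs, times 1000000). A match is a match of letters and shows no binding.

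Langerin (Cd207, chr6:83648190-83654839, minus strand), the lectin of Birbeck granules, summed to 582 CPM (95% Poisson interval 578 to 587), with 1 to 54 UMIs per cell and a median of 6. Epcam (chr17:87943407-87958557, plus strand) reached 1541 CPM, with 2 to 101 UMIs per cell and a median of 18. Both chose the cells, so these levels describe the choice. The other 3 LC markers, H2-M2 (chr17:37791742-37794472, minus strand), Hpgd (chr8:56747543-56774082, plus strand) and Adgre4 (chr17:56056984-56175274, plus strand), were not part of the rule. After each cell had been thinned to 5000 UMIs, H2-M2, a nonclassical MHC class I gene, had a UMI in 98.1% of 8926 cells (99.6% without thinning), Hpgd, the enzyme that breaks down prostaglandins, in 79.0% (93.6%), and Adgre4, an adhesion receptor of myeloid cells, in 56.1% (79.3%). In 77 keratin-rich droplets with little MHC class II, described further on and thinned alike, the shares were 10.4%, 1.30% and 1.30%. The median depths before thinning were 11739 UMIs in all 9119 LCs and 24704 in all 81 such droplets, with those too shallow to thin included. These 3 markers were also chosen with earlier results of these data known, so their shares describe the cells and are no independent check of the label.

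Just outside the rule lay 245 barcodes that failed on Cd207 alone. They had 1415 CPM of H2-M2, 185 of Adgre4 and 472 of Hpgd. The 492 cells with exactly 1 Cd207 UMI had 1579, 210 and 515 CPM, close to the barcodes that were left out, and the median depths were 8389 and 8808.5 UMIs. Another 57 barcodes failed on keratins alone, 39 on Epcam and 23 on MHC class II. On Epcam, 29 cells held 2 UMIs and 22 barcodes that met every other condition held 1. The keratin share was between 0.05% and 0.1% in 28 cells and between 0.1% and 0.2% in 6 barcodes left out. The MHC share was between 2% and 2.5% in 43 cells and between 1.5% and 2% in 14 left out.

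The chosen LCs held 918 to 64326 UMIs (median 11739) and a median of 3587 genes, and their median mitochondrial share was 1.54%. Of the other marker lists, T cell, fibroblast, endothelial, neutrophil, mast cell, Merkel cell, B cell, NK cell, plasmacytoid dendritic cell and red cell markers had no member at 20 CPM or more. The keratinocyte list had 2 of 13 (Krt10 at 43.1 and Krtdap at 25.6 CPM), the melanocyte list 1 of 6 (the transcription factor Mitf, 49.3 CPM) and the monocyte and macrophage list 1 of 8 (C1qa, 60.0 CPM). The melanocyte pigment enzymes Dct (0.0341 CPM) and Tyrp1 (0 CPM) were at or near 0. The level of 20 CPM was reached by 6259 of all 34289 features. Of 6 conventional dendritic cell markers 4 reached it, Zbtb46 at 66.7, Mgl2 at 52.2, Flt3 at 41.1 and Cd209a at 22.7 CPM, while Xcr1 and Clec9a, which define the cross-presenting type, had 0.853 and 0.0853. The keratinocyte list summed to 123 CPM in the LCs and 66120 in the keratin-rich droplets with little MHC class II. Its genes Krt14, Krt5, Krt1 and Krt10 were capped in the LCs and required in the droplets. The Cd3 genes of the T cell list were capped as well, so these levels are partly set by the choice. The part of other cells in the levels given here was not tested. The untreated library shared 32 barcodes with the croton oil and 17 with the microneedle library, of which 15 and 14 passed the rule in both. The same rule kept 4872 of 8241 croton oil barcodes (59.1%) and 5348 of 6945 microneedle barcodes (77.0%).

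**Figure D1:**
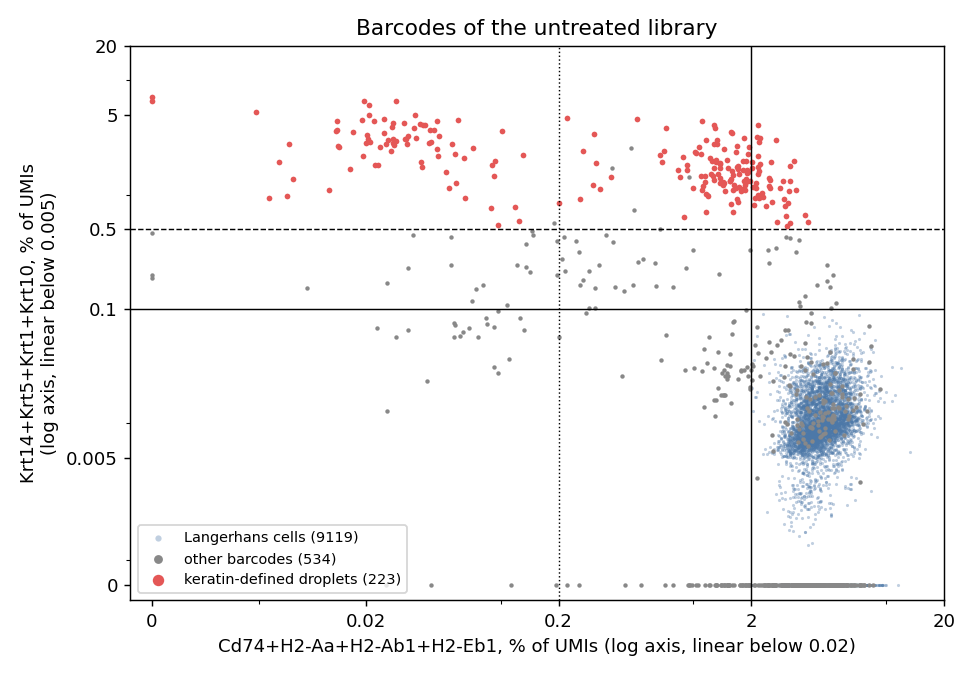
Barcodes of the untreated library by the share of UMIs from 4 MHC class II genes (x axis, percent) and from 4 keratins (y axis, percent). Blue points are the 9119 LCs, red points the 223 keratin-defined droplets and grey points the rest; solid lines are the LC thresholds, the dashed line the keratin threshold of 0.5% and the dotted line 0.2% MHC class II. Of the red points, 81 lie under 0.2% and 122 at or above 1% MHC class II, the latter with a median of 1.74%, below the 2% floor of the LCs.

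Presentation of antigen on MHC class II led the resting transcriptome. The invariant chain Cd74 stood at 19341 CPM (19316 to 19366), or a median of 97 of 5000 UMIs in a cell. H2-Aa, the class II alpha chain, followed at 9560 CPM, and the beta chains H2-Eb1 and H2-Ab1 at 8676 and 8059 CPM. These 4 genes made up 4.56% of all UMIs. They too chose the cells, through a floor of 2%, whereas the genes around them did not. The class II loading genes H2-DMa (1148 CPM) and H2-DMb1 (712 CPM) were at lower levels, and H2-DMb2 was at 130 CPM. Ciita, the coactivator, had 267 CPM, and Marchf1, the ligase that tags class II molecules for breakdown, 349 CPM. H2-Oa, a brake on peptide loading, had 31.5 CPM and its partner H2-Ob 4.12 CPM. The assay tags the 3′ end of a molecule, so levels were not divided by gene length. Whether intronic reads were counted is not given in the sources used here, and the part of gene length in the order of the levels was not tested.

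Outside the mitochondrial and ribosomal protein genes, the 25 highest genes fell into a few groups. Cst3, the cathepsin inhibitor cystatin C, had 6155 CPM. Cd86, the costimulatory ligand that a naive T cell needs beside peptide, had 4522 CPM and was found in 99.5% of thinned cells (99.7% unthinned, 19.5% of the keratin-rich droplets with little MHC class II). Tbc1d4, a regulator of vesicle traffic, had 3594 CPM, and Dennd4a, an activator of a Rab GTPase, 4714 CPM. Rgs1, which dampens G protein signalling, had 3073 CPM, and Il1r2, the decoy receptor of interleukin-1, 2523 CPM. Transcription factors of the AP-1 and ATF families were also there, Fos at 3457, Fosb at 2832, Atf3 at 2517 and Junb at 2454 CPM. Rasgef1b, an exchange factor of Ras-like GTPases, had 2219 CPM. Vim, the intermediate filament vimentin, had 2486 CPM. The rest were genes that most cells use at high level, such as Malat1 (14832), Tpt1 (5667), Tmsb4x (5622), Eef1a1 (3972), H3f3b (3528), Actb (2741), Ftl1 (2143) and Fth1 (2072).

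**Figure D2:**
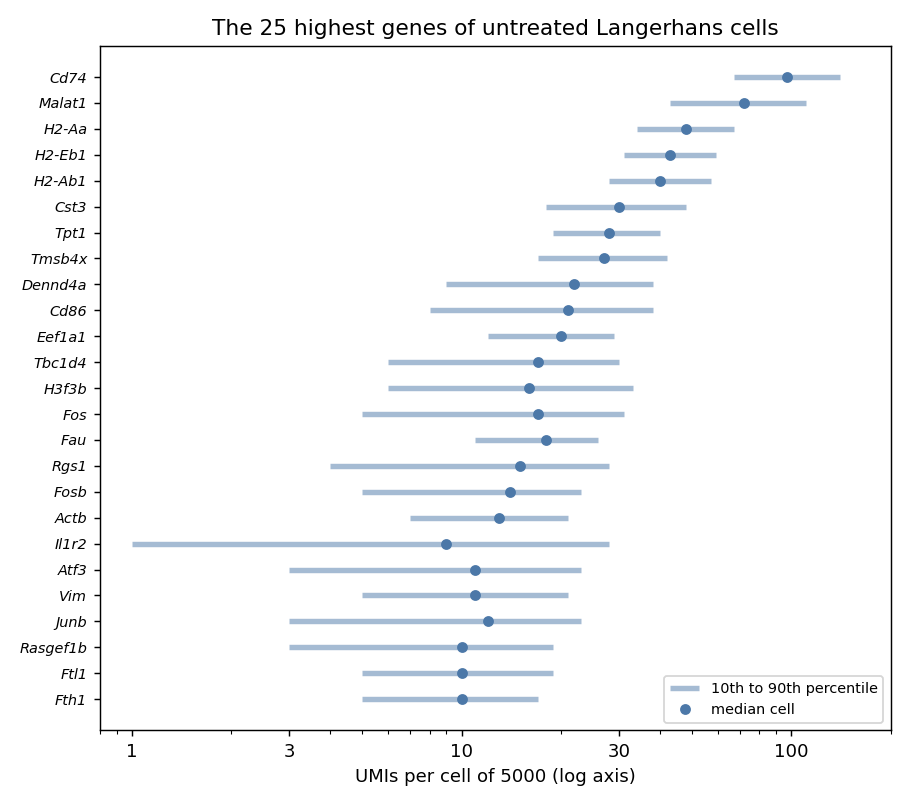
UMIs per cell, of 5000, for the 25 highest genes outside the mitochondrial and ribosomal protein genes (log x axis; n = 8926 cells). Dots are the median cell and bars the 10th to 90th percentile; Cd74 has a median of 97, and Il1r2 the widest bar, from 1 to 28 UMIs.

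The RNA was spread over many genes. A level of at least 1 CPM was reached by 13459 genes, at least 100 CPM by 1883 and at least 1000 CPM by 135. The 10 highest genes held 8.71% and the 100 highest 26.8% of all UMIs. Of the 50 highest genes, 24 were mitochondrial or ribosomal protein genes. All mitochondrial genes together took 1.53% of the UMIs and all 90 ribosomal protein genes 11.3%.

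Of 23 immediate early genes, which cells switch on within minutes of a stimulus, 22 had at least 20 CPM, a level that 6259 of all 34289 features reached. Together they summed to 24538 CPM in the LCs. Jun had 1888 CPM, Nr4a3, a nuclear receptor induced by stimulation, 1360, and Egr1 639, whereas Egr2 had 9.31. Trypsin and the suspension steps at 37 °C were shared by all 3 libraries, and their part in these levels was not tested. In the croton oil and microneedle LCs, Fos stood at 2555 and 2692 CPM, below the 3457 of the untreated LCs.

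Among identity genes, the colony stimulating factor receptor Csf1r had 304 CPM and the pan-leukocyte phosphatase Ptprc (CD45) 527 CPM. Adgre1, the gene of F4/80, had 250 CPM and Itgax, the gene of CD11c, 57.8. Cdh1, which encodes E-cadherin, had 382 CPM. Of 18 transcription factors listed for LCs and other dendritic cells, 16 had at least 20 CPM, against 6259 of all 34289 features. Rel and Nfkb1, subunits of NF-kB, stood at 1428 and 918 CPM, Id2, an inhibitor of helix-loop-helix factors on which LCs depend, at 482, Runx3, on which LCs also depend, at 443, Spi1 (PU.1) at 403, and Ahr, the aryl hydrocarbon receptor, at 398. Zeb2 and Batf3, factors of other dendritic cells and macrophages, had 1.36 and 6.40 CPM.

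Genes of maturation and migration were split. Cd86 and Cd83 (1576 CPM) were high, and Cd40 had 91.7 CPM. Ccr7, the receptor that takes LCs to lymph nodes, had 0.734 CPM, and 1 cell held 11 of its UMIs after thinning. Fscn1, the actin bundler of migrating dendritic cells, had 2.87 CPM. Ccl22 and Ccl17, chemokines of mature dendritic cells, had 14.2 and 8.56 CPM, with a Ccl22 UMI in 0.415% of thinned cells and 83 UMIs in the highest of them. None of 14 interferon-stimulated genes reached 20 CPM, a level reached by 6259 of all 34289 features. The highest were Bst2 at 16.9 and Usp18 at 15.6.

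Of 19 cytokines and chemokines, 7 reached 20 CPM, against 6259 of all 34289 features. Tnf led at 610 CPM, with a UMI in 75.4% of thinned cells (87.6% unthinned, 2.60% in the keratin-rich droplets with little MHC class II). Cxcl16 had 304, Il18 267, Cxcl2 233 and Tgfb1 144 CPM. Il6, Il12b and Ccl5 were each under 0.1 CPM. Among uptake receptors, Ly75 (DEC-205) had 293 CPM and Fcer1g, the signalling chain of Fc receptors, 318, while Mrc1, the mannose receptor, had 0.324 and Cd36 0.213 CPM.

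Lipid mediator genes were found on both the leukotriene and the prostaglandin D2 branch. Hpgds, which makes prostaglandin D2, had 1218 CPM, Ltc4s, the leukotriene C4 synthase, 623, Alox5ap, the helper of 5-lipoxygenase, 585, Alox5 itself 367 and Ptgs1 309 CPM. Ptgs2 and Ptges, of inducible prostaglandin E2 synthesis, had 2.02 and 0.341 CPM. The lysosomal protease Ctss, which trims the invariant chain, had 776 CPM, against 17.1 for Ctsd and 25.5 for Ctsl. C1qa, a chain of complement C1q, had 60.0 CPM, while the chains C1qb and C1qc, needed for the complete molecule, had 0.0426 and 0.614.

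Untreated keratinocytes were to be the contrast, taken as 223 barcodes with at least 0.5% of UMIs from the same 4 keratins. These droplets were not 1 population. In 81 of them MHC class II made up under 0.2% of UMIs (median 0.0286%), in 122 at least 1% (median 1.74%), and 20 lay between. Cd207 had a UMI in 16.0% of the first set and 96.7% of the second. Their median depths were 24704 and 31928.5 UMIs, both above the 11739 of the LCs. For 292 genes with at least 100 CPM in the LCs and a log2 ratio of at least 4 over the 81 droplets, the 122 droplets held a median of 44.3% of the LC level. The ratio of LCs over those 122 droplets kept to a narrow band across the 292 genes, with a median of 2.26 and a range from 1.89 (5th percentile) to 2.80 (95th). Over the 81 droplets the same genes ran from 23.5 to 348. Whether the 122 droplets held an LC beside a keratinocyte was not tested.

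Against all 223 droplets, 63 of 7806 genes (0.807%) were at least 4-fold higher in the LCs and 899 (11.5%) at least 4-fold lower. The ratio is taken as log2((CPM + 5)/(CPM + 5)), over genes with at least 20 CPM on either side, a scale that understates low genes. Against the 81 droplets with little MHC class II, a set chosen after the split had been seen, 1229 of 7884 genes (15.6%) were higher and 1073 (13.6%) lower. The median over all genes tested was 0.07 for the 223 and 0.21 for the 81 droplets. Since the rule for the LCs used MHC class II and keratins, these counts describe the choice.

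Over all 223 droplets the 25 highest ratios spanned a small range. Cxcl2, a neutrophil chemokine, led at 3.29 on the log2 scale (233 CPM against 19.2), followed by Basp1 at 2.33, Mfge8, a bridge to dying cells, at 2.27, Lsamp, an adhesion protein known from neurons, at 2.27, and Sema6d, a semaphorin, at 2.22. The others, among them Gpr183, P2ry10, Malt1, Il1r2, Elovl5, Tbc1d4, Vim, Cd207 and H2-Ab1, lay between 2.09 and 2.21. Only Cxcl2 stood clear of the rest in this ranking.

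Over the 81 droplets the order was another one, and 4 of its first 25 genes were among the 25 before. The 4 class II genes stand high here by the choice of cells, since the LCs had to hold at least 2% and the droplets under 0.2% of UMIs from them. Cd74 led at 7.44 (106.6 CPM in the droplets), then Tbc1d4 at 7.22 (3594 against 19.2 CPM), the orphan receptor Gpr141 at 7.18 (1492 against 5.31), Cd86 at 7.07 (4522 against 28.6), H2-Ab1 at 6.97 and H2-Eb1 at 6.87. Elmo1, which couples engulfment to Rac, stood at 6.85, Ctss at 6.71 (776 against 2.45) and Hpgds at 6.58 (1218 against 7.76). The actin bundler Lcp1 at 6.61, the protein kinase C gene Prkcb at 6.59 and the lipid phosphatase gene Inpp5d at 6.27 were also among the 25. So were genes better known from nerve cells, the calcium channel subunits Cacnb2 (1324 CPM, ratio 6.61) and Cacna1e (1062 CPM, 6.53), and Ctnnd2, a delta catenin (946 CPM, 6.59).

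**Figure D3:**
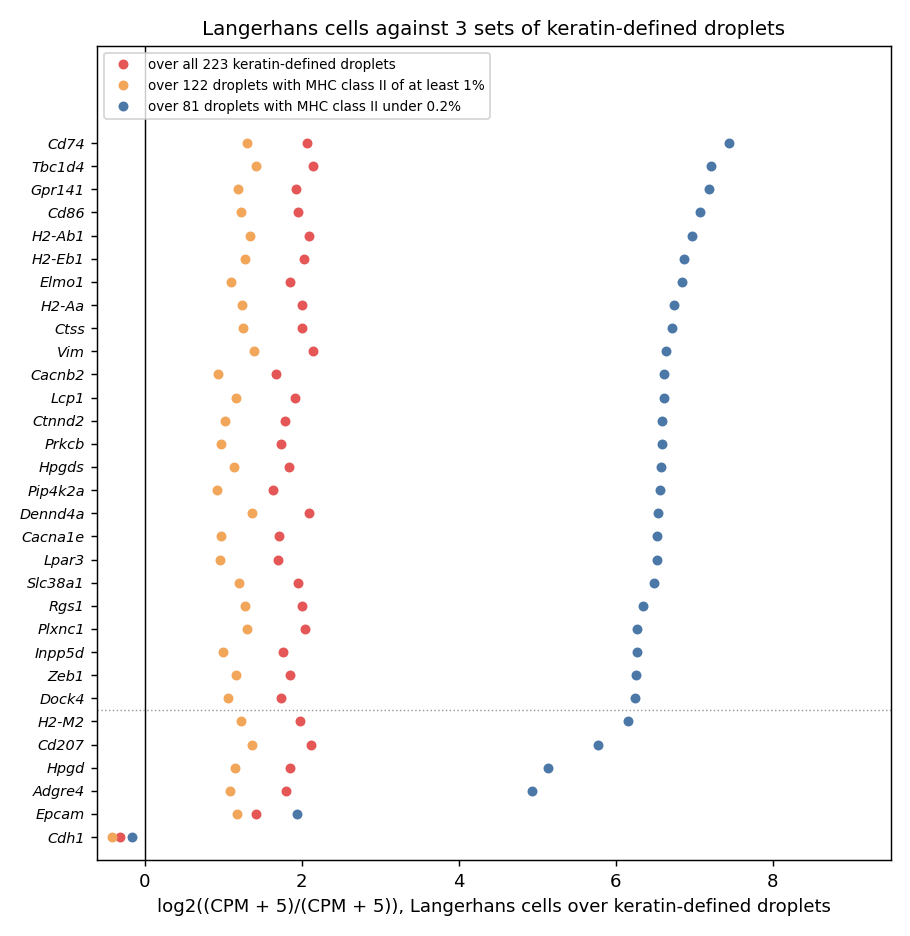
Log2 ratio of LCs over keratin-defined droplets (x axis) for the 25 genes highest over droplets with little MHC class II, and below the dotted line for LC markers and Cdh1. Red is over all 223 droplets, orange over the 122 with at least 1% MHC class II and blue over the 81 under 0.2%; blue points reach 7.44, far above the red and orange points of the same genes, while the 3 colours of Epcam and Cdh1 lie close together.

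The rule required Cd207 and Epcam UMIs in the LCs, so the ratios of these markers are partly set by the choice of cells. On the same scale over the 81 droplets, H2-M2 stood at 6.15 (1427 against 15.1 CPM), Cd207 at 5.78 (582 against 5.72) and Hpgd at 5.14 (446 against 7.76). Adgre4 had 186 CPM against 1.22, which rests on 3 UMIs. Epcam was at only 1.94, since the droplets held 397 CPM of it, and Cdh1 was at -0.16 (382 against 427 CPM). None of 10 adhesion genes tested passed 4-fold in either direction. They included Ctnna1 at 1.23 and Cldn1 at 0.84, the genes of alpha-catenin and claudin-1.

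Counts over the gene lists, read against the 15.6% and 13.6% of all genes, were as follows. A gene had to reach 20 CPM on either side, so a listed gene that is high in the LCs alone entered only by being higher there, and the counts describe and support nothing. All 10 class II genes tested, of 12 listed, were at least 4-fold higher in the LCs. Among them Cd74, H2-Aa, H2-Ab1 and H2-Eb1 were set by the choice of cells and droplets. All 9 uptake receptors tested, of 14 listed, were higher as well. Of 13 identity genes 10 were higher and 0 lower, and 11 of 16 transcription factors were higher and 1, Klf4, a factor of keratinocyte differentiation, lower at -3.67. In contrast, 1 of 12 class I genes, H2-M2, was higher and 1 lower, and the list's median was -0.25. H2-K1 had 185 CPM in the LCs against 726 in the droplets, and B2m 732 against 687. Of 23 immediate early genes 16 were higher, led by Nr4a3 at 5.49, and 1 lower, with Egr1 at 0.00 (639 CPM on both sides). Lysosomal genes were split, 6 of 16 higher and 2 lower, the latter being Ctsd at -4.04 and Ctsl at -4.03. For lipid mediators 6 of 12 were higher and 2 lower, Ptges (0.341 against 88.2 CPM) and Alox12 (0.503 against 55.1 CPM). Heat-shock genes had 1 of 13 higher and 2 lower, with Hspb1 at 5.23 against 4525 CPM.

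Receptors and the TGF-beta pathway, which keeps LCs in the epidermis, gave 9 of 12 and 3 of 9 genes higher. Csf2rb, the beta chain of the GM-CSF receptor, had 182 CPM in the LCs against 0.817 in the droplets. Tgfbr1, the type I TGF-beta receptor, had 246 CPM against 10.6, its ligand Tgfb1 a log2 ratio of 3.79 (144 against 5.72) and the feedback inhibitor Smad7 one of 3.69 (197 against 10.6). The integrins that free TGF-beta from its latent form, Itgb6 and Itgb8, were at 0.119 and 0.239 CPM in the LCs. Of the TGF-beta list 1 gene was lower, the receptor kinase Axl (0.512 against 24.5 CPM). Among innate sensors Nlrp3, of the inflammasome, led at 167 CPM, Tlr2 had 44.2, while Tlr3, Tlr7 and Tlr9 were each under 1 CPM. Genes for clearing dead cells and handling lipid were split, 4 of 10 higher and 5 lower. Mfge8 had 465 CPM against 2.45, Abcg1, a cholesterol exporter, 351 against 20.4, and Apoe 378 against 1610. The engulfment receptors Mertk, Axl and Tyro3 were all under 1 CPM in the LCs.

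Cell-to-cell variation was measured in the 8926 LCs with at least 5000 UMIs, each thinned to 5000, which left out 193. The Fano factor, the variance of a gene's UMIs over their mean, was divided by the median of the 100 genes nearest in mean. At the top of the range these were the 100 genes of highest mean. Cd74, Malat1 and Il1r2 thus shared a comparator median of 2.03, and Cd74, with the highest mean, was set against genes of lower mean. Of 6255 genes with a mean of at least 0.1 UMI, 124 (1.98%) had a ratio of at least 2. The 20 highest held the inflammatory genes Cxcl2 (8.28) and Il1b (4.95) and the decoy receptor Il1r2 (5.09). They also held heat-shock genes (Hspa1a at 6.12, Hsph1 at 4.36, Hspa1b at 3.34). Genes of other roles were Lsamp at 5.65, Malat1 at 4.90, Crip1 at 4.73 and Cd74 at 4.17, among others. Of the markers, Cd207 and Epcam had ratios of 0.85 and 0.87, but the rule had removed barcodes low in both, which lowers their spread. The markers outside the rule had ratios of 0.90 (Adgre4), 1.71 (H2-M2) and 1.85 (Hpgd).

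**Figure D4:**
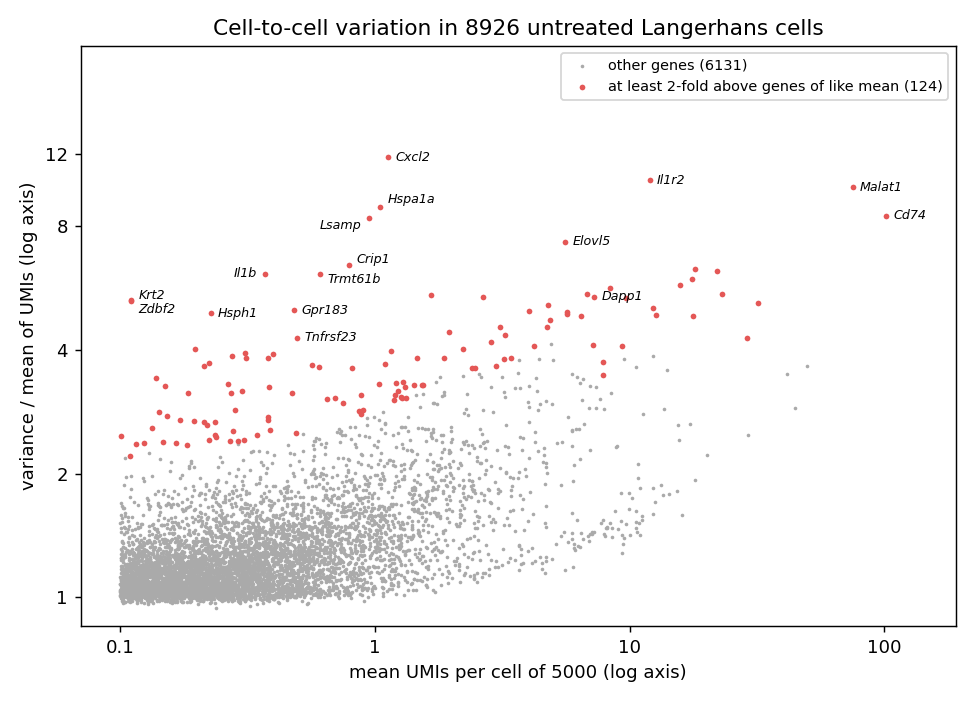
Variance over mean of UMIs (y axis, log) against mean UMIs per cell of 5000 (x axis, log) for 6255 genes across 8926 LCs. Red marks the 124 genes at least 2-fold above genes of like mean, which at the top of the range were the 100 of highest mean. Of the 20 highest, 16 are named, and Cxcl2 and Il1r2 lie highest.

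Some genes had no UMI in most thinned cells and many in a few, where no UMI of 5000 does not show that a cell lacked the RNA. Cxcl2 had no UMI in 79.2% of thinned cells, where a Poisson spread of the same mean would leave 32.5% without one, and up to 59 UMIs in a cell. Without thinning 27.7% of cells held a Cxcl2 UMI, against 20.8% with it. The 10% of cells with most Cxcl2 held 85.9% of its UMIs. Lsamp had none in 81.2% of cells and up to 34 in one, and its closest gene, Gm15501, had a Pearson r of only 0.08 with it. Il1b had none in 88.4%, and 95.7% of its UMIs were in the 10% of cells with most. Zdbf2, a gene under imprinting, had none in 95.5% and up to 23. Il1r2 was spread otherwise: 9.04% of cells had none, 48.3% had at least 10, and the highest held 77. Krt2, a keratin of differentiated epidermis that the rule did not use, was at 21.9 CPM, with no UMI in 90.8% of cells and 58 in the highest; keratin-defined droplets with little MHC class II held 16028 CPM, and the part of keratinocyte RNA in those cells was not tested.

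Genes varied together across cells in a few groups. The Pearson r values are of ln(1 + thinned UMIs) over 8926 cells, which share a library, and no p is given. Cd74 had r = 0.68 with H2-Aa, 0.66 with H2-Ab1, 0.62 with H2-Eb1 and 0.57 with Cst3. A second group joined Cd86, Fos, Fosb, Dennd4a, Tbc1d4, Il1r2 and Cd83. Within it Fos and Fosb had r = 0.52, Cd86 had 0.44 with Fosb and 0.43 with Dennd4a, and Il1r2 had 0.36 with Fosb, 0.33 with Cd86 and 0.33 with Tbc1d4. Between the groups r was negative, as for Cd86 with H2-Ab1 at -0.32. Hspa1a went with Hspa1b (0.45) and Hsph1 (0.36), and Top2a, of dividing cells, with the microtubule regulator Stmn1 (0.42) and Mki67 (0.34). Malat1 went with Pcdh7 (0.24), Colec12 (0.23) and Cacna1e (0.21). None of the genes compared reached r = 0.2 with Cxcl2, Lsamp, Il1b, Krt2 or Zdbf2. The marker Cd207 had r between -0.09 and 0.12 with each of the genes plotted.

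**Figure D5:**
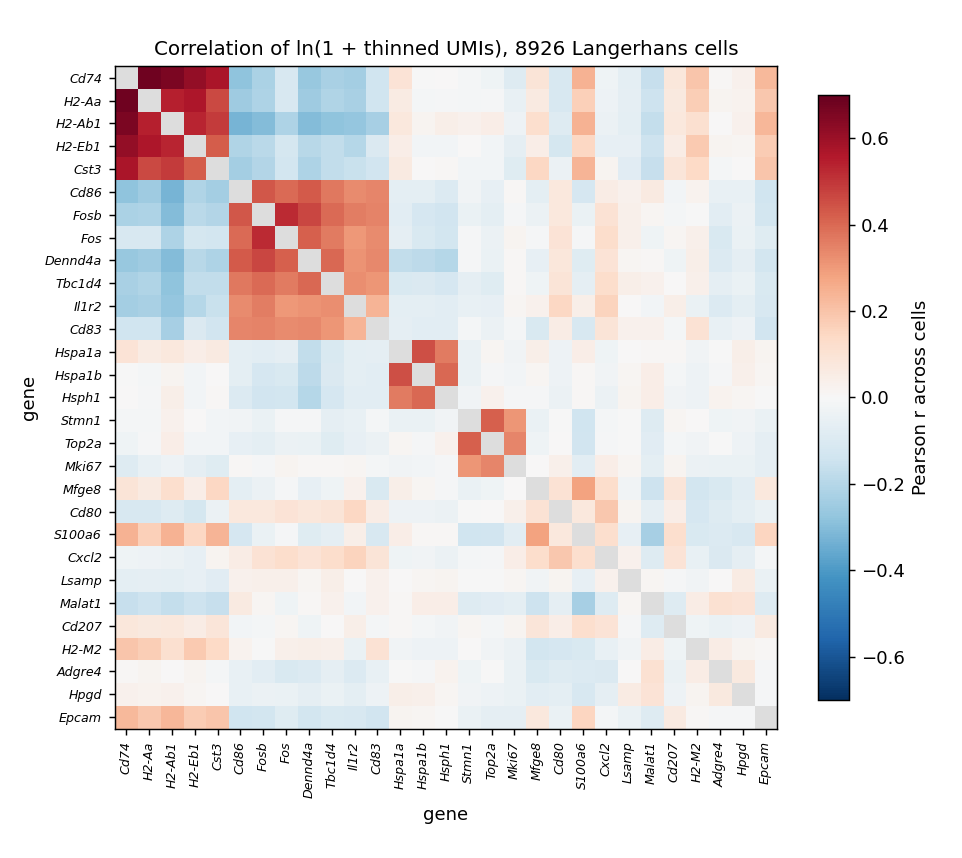
Pearson r of ln(1 + thinned UMIs) across 8926 LCs for chosen genes (both axes are genes; red positive, blue negative, grey the diagonal). Blocks of class II genes with Cst3, of Cd86 with Fos and Il1r2, of heat-shock genes and of dividing-cell genes stand out, and the first and second blocks are negative towards each other.

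The first principal component of 1500 variable genes took 1.44% of their variance and set H2-Ab1, Cd74, H2-Aa and Cst3 at one end against Cd86, Fosb, Dennd4a and Tbc1d4 at the other. Its r with the log of depth before thinning was -0.39. In the 2231 cells with least class II RNA (median 176 of 5000 UMIs), Cd86 had a mean of 26.3 and Il1r2 16.0 UMIs. In the 2231 cells with most (median 304), the means were 16.9 and 7.90. The median depth before thinning was 14172 UMIs in the first set and 9718 in the second, and the median mitochondrial share 1.33% and 1.75%. The ribosomal protein gene Rps9 had means of 14.0 and 17.9 UMIs, and Tmsb4x 24.3 and 34.2. Depth and mitochondrial share thus moved with class II, and their part was not tested. The fifth component was led by Top2a, Stmn1 and Mki67. Mki67 had a UMI in 14.6% of thinned cells (26.5% unthinned), against 2.60% in the keratin-rich droplets with little class II, and Top2a in 8.06% (14.5%), against 6.49%.

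The treated libraries were filtered by the same rule. Treatment, library and animals cannot be told apart here, and both comparisons share the untreated cells, so the values stand side by side. Against the croton oil LCs 391 of 6840 genes (5.72%) were at least 2-fold higher in the untreated LCs and 396 (5.79%) lower; with TMM scaling, which moved every ratio by -0.10 on the log2 scale, the counts were 297 and 500. Against the microneedle LCs 114 of 6699 (1.7%) were higher and 264 (3.94%) lower. The croton oil cells that lacked Cd207 alone numbered 1415, against 245 in the untreated library. The MHC class II step left 6744 of 8158 croton oil barcodes and 9505 of 9827 untreated ones, so barcodes were lost at both steps. Ribosomal protein genes took 11.3% of UMIs in the untreated LCs, 8.89% after croton oil and 8.50% after microneedle punches.

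Hpgd had 446 CPM in the untreated LCs, 39.6 after croton oil and 88.9 after microneedle punches, log2 ratios of 3.34 and 2.26. Adgre4 had 186, 14.5 and 41.0 CPM, ratios of 3.29 and 2.05. Both markers were thus highest in the untreated library. Among genes with at least 100 CPM in the untreated LCs, the next over croton oil were the ubiquitin ligase Nedd4 (3.18), Pid1, an inhibitor of insulin signalling (545 against 59.4 CPM), the phosphatase Inpp4b (530 against 61.7 CPM), Kynu, of tryptophan breakdown (2.76), Wnk2 (2.53) and Stard9 (2.42). Over microneedle, with the same floor of 100 CPM, the histone deacetylase Hdac9 led at 2.88 (102.5 CPM against 34.8 in croton oil and 9.58 in microneedle LCs). Hcar2, a receptor for hydroxybutyrate (1.78), Pid1 (1.71), Klf2, a factor of quiescence (1.63), H2-M5 (1.55) and 5430437J10Rik (1.53) came after Hpgd and Adgre4. Below that floor, the keratin Krt2 had 21.9 CPM in the untreated LCs against 1.32 after croton oil and 2.08 after microneedle punches. H2-M2 had 1427 CPM in the untreated LCs and 653 and 652 CPM in the treated ones.

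The genes that led the resting transcriptome differed in how their levels compared across the 3 libraries. Cd74 had 19341 CPM in the untreated LCs, 22175 after croton oil and 19384 after microneedle punches. Cd86 had 4522, 3894 and 5633 CPM, and Tbc1d4 3594, 2659 and 3325. The spread was wider for Cst3, with 6155, 11218 and 4469 CPM, and for Vim, with 2486, 5281 and 3982. Of the 20 genes that varied most among untreated cells, 10 had their lowest level in the untreated library, 2 (Krt2 and Tnfrsf23) their highest and 8 a level in between. Of all 6255 genes measured for variation, 2191 (35%) were lowest and 2714 (43.4%) highest there, and the count over 20 genes is a description only. Among the 10, Cxcl2 had 233, 1315 and 690 CPM, Il1b 71.5, 693 and 356, Crip1 156, 1699 and 820, and Gpr183 101, 872 and 422. Of those in between, Elovl5, a fatty acid elongase, had 1176, 408 and 1288 CPM and Lsamp 189, 296 and 90.3. Tnf, which is not among the 20, had 610, 264 and 263 CPM.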

How the data were processed

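The deposited values were whole-number UMI counts per gene and barcode, not normalized, written by Cell Ranger. Its version, 8.0, is given per the submitters' processing notes. The libraries were of the Chromium 3′ kind, per the labels' protocols. The build was GRCm39, per the submitters' processing notes. The annotation, and whether intronic reads were counted, are not given in the sources used here. Barcodes were filtered by the rule stated above, UMIs were summed over cells and divided by the total to give CPM, and thinning drew UMIs without replacement (seed 1). Of 34289 features, 33767 had an identifier in GENCODE M39, which gave the start sites. Named genes were the 25 highest, the 25 with the highest ratio over keratin-defined droplets (at least 100 CPM), the 20 of highest Fano ratio with up to 3 partners at r of at least 0.2, the 8 highest over each other library (at least 100 CPM) and members of the gene lists. The rule, the lists and the genes that mark the cells were chosen with earlier results of these data known. The split of the keratin-defined droplets was set after seeing them. No doublets were removed in the main values: Scrublet (scanpy 1.11.5) marked 1 untreated barcode, and none in the other libraries, by its own threshold, so a removal of the highest scores (0.8% per 1000 cells) was an alternative. TMM factors came from edgeR 4.0.16 in R 4.3.3; the rest used Python 3.11.15, numpy 2.4.6, scipy 1.17.1, pandas 2.3.3 and scikit-learn 1.9.0. Ratios and Fano ratios were tested on simulated data.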

Additional observations from a re-analysis of the deposited data

Results flagged for a closer look

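The feature list holds 4 transgene sequences that the comparisons above do not use and that the labels do not mention. UMIs assigned to mCherry stood at 4.82 CPM (346 UMIs) in the croton oil and 1.94 CPM (196 UMIs) in the microneedle LCs, above the 1.21 CPM (142 UMIs) of the untreated LCs. UMIs assigned to eGFP stood at 1.49 CPM in the untreated LCs, 0.738 after croton oil and 1.51 after microneedle punches, and tdTomato and creER had 0 UMIs in all 3. With 1 library per group, these differences between libraries were not tested.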

How the results depend on the processing

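No paired analysis was possible because each group has 1 library. The number of LCs, 9119, became 8627 with at least 2 Cd207 UMIs and 8360 after removal of the highest Scrublet scores, which took 759 LCs; the other 3 thresholds left it within its interval. The count of genes higher than in keratin-defined droplets, 63, was the least stable value: 135 without the highest Scrublet scores, 132 with TMM scaling, 165 with a pseudocount of 1 CPM, 36 without mitochondrial and ribosomal protein genes, 369 with droplets under 2% MHC class II, and 1229 with droplets under 0.2%, the last chosen after seeing the data. TMM moved these ratios by 0.12 on the log2 scale. The count of lower genes, 899, became 562 at 50 CPM and lay between 860 and 1073 otherwise. At 50 CPM the genes higher than in croton oil numbered 243 and those higher than in microneedle 66. The most variable genes numbered 51 after thinning to 3000 UMIs and 74 with a mean of at least 0.5. The other 57 such counts stayed within 1.5 times their main value or, for the number of LCs, its interval, and none of the alternatives run changed the sign of a ratio for the 25 genes named over all 223 droplets or the 8 named over each treated library. Ratios of other genes, and those over the 81 droplets, had no such alternatives. With 1 library per group, differences between animals, batches and treatments cannot be told apart.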
